A study of Mus musculus with 6 samples.

Results

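The genes described here move, sense or store zinc and copper: the zinc carriers of the Slc30a and Slc39a families, the copper carriers Slc31a1 and Slc31a2, the metallothionein genes Mt1, Mt2 and Mt3, the metal-sensing transcription factor gene Mtf1, the copper pump genes Atp7a and Atp7b and the copper chaperone genes Atox1 and Ccs. They were chosen by symbol in the platform annotation, which gave 34 genes of 19505 tested, each with 1 probe set. The arrays came from RAW264.7 cells, an established mouse macrophage line, grown for 3 days in high-glucose medium with serum on the implant polymer polyetheretherketone (PEEK). The control group of 3 arrays came from cells on pristine PEEK and the other group of 3 from cells on a PEEK surface that had been modified in a way the sources used here do not describe. All cells were of the same line, and the labels name no other treatment of either group. Whether the samples of a surface were independent cultures is not stated, so p-values cover only the spread among these arrays, and part or all of that spread may be technical.

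Cells keep free zinc and copper very low. Slc39a (ZIP) proteins bring zinc into the cytosol from outside or from organelles. Most Slc30a (ZnT) proteins carry it out of the cytosol, across the plasma membrane or into vesicles. Copper enters mainly through Slc31a1 (CTR1), is passed on by chaperones and is pumped into the secretory pathway by Atp7a and Atp7b. Metallothioneins are small cysteine-rich proteins that bind both metals, and the genes Mt1 and Mt2 are switched on by Mtf1 when zinc rises. In macrophages these systems are known for withholding metals from microbes and for loading phagosomes with copper.

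On modified PEEK 8 of the 34 genes were lower and 2 were higher. The zinc importer gene Slc39a8 fell 4.27-fold, the largest change of the 34, and the copper carrier gene Slc31a2 fell 2.06-fold. Mt2 fell 1.73-fold, the zinc efflux gene Slc30a1 1.57-fold, the vesicle zinc loader Slc30a4 1.67-fold, the zinc importer Slc39a14 1.46-fold and Mtf1 1.38-fold. Slc39a2 also fell, to a level below background. Slc30a5 and Slc39a10 rose 1.35-fold and 1.36-fold.

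A gene was taken as changed at a Benjamini-Hochberg adjusted p under 0.05 in limma's moderated test, fitted over all 19505 genes; changes are log2 signal on modified minus pristine PEEK. By this rule 29.4% of the 34 genes changed, against 10.4% of all genes. Lower genes made up 23.5% of the 34 and 5.15% of all genes, and higher genes 5.88% and 5.24%. Of all genes above background on at least 1 surface, 14.9% changed, and 31.2% of the 32 of the 34 that were above it. The background, 3.72, is the 95th percentile of the group means of 1412 genes for odorant and vomeronasal receptors, taken as largely silent in macrophages. The median change was -0.14 over the 34 genes and 0.0088 over all genes. Whether or not they passed, 26 of the 34 changed downward, against 9428 of all 19505 genes. Scaling to spike-in probe sets, given below, turned many of those 26 changes positive. The 3 arrays of each surface did not overlap for 17 of the 34 genes (14 lower and 3 higher), against 28.8% of all genes. These included all 10 that passed. In bulk RNA, a lower signal from fewer cells using a gene cannot be told apart from less RNA of it per cell.

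**Figure D1:**
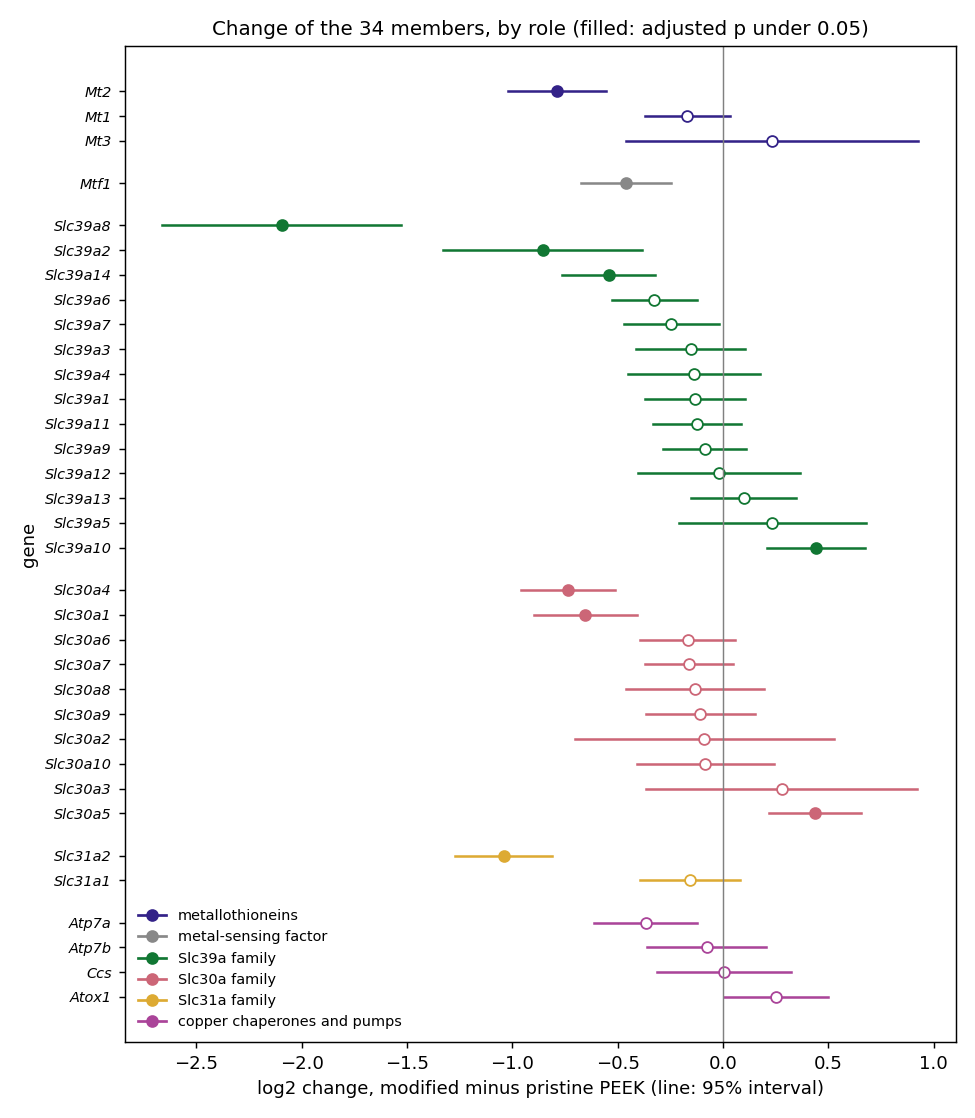
Log2 change (modified minus pristine PEEK, x axis) of each of the 34 genes, grouped by role, with its 95% interval from the moderated fit; filled points have an adjusted p under 0.05. Slc39a8 lies farthest from 0 at -2.09, and most of the open points lie just left of 0.

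Whole-series values that touch these results are few. Arrays of the same surface correlated at 0.991 to 0.996 over genes, and arrays of different surfaces at 0.985 to 0.988. The mean signal of 24 poly-A spike-in probe sets was 6.96 ± 0.15 (SD, n = 3) on the pristine arrays and 6.71 ± 0.14 (SD, n = 3) on the modified ones. With arrays scaled to those spikes the median change of all genes was 0.26 and that of the 34 was 0.11, or -0.14 relative to all. Then 2 of the 34 genes were higher and 3 lower, and no gene named above as changed went the other way. Macrophage markers were present, with 8 of 9 above background on each surface and a mean level of 9.58 to 9.63 on pristine and 9.52 to 9.57 on modified arrays. Of these markers Adgre1 was higher and Itgam and Fcgr1 lower, and Mertk passed as higher while below background on both surfaces. Above background on each surface were 0 of 3 T cell, 1 of 3 B cell, 1 of 3 neutrophil, 2 of 4 fibroblast and 3 of 4 epithelial markers, and none of these passed. Of 7 osteoclast markers 3 were lower (Acp5, Dcstamp and Mmp9) and 0 higher, against 5.15% lower and 5.24% higher of all genes. Ctsk (-0.29), Oscar (-0.32) and Ocstamp (0.33) did not pass, nor did Calcr, which was below background on both surfaces. The mean level of the 7 was 5.51 to 5.63 on pristine and 4.96 to 5.09 on modified arrays. The part of these marker differences in the metal gene results was not tested.

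The metallothionein genes come first, with the upstream sequences of Mt2, Mt1 and the zinc exporters Slc30a1 and Slc30a4. Mtf1 is known to act on the promoters of Mt1, Mt2 and Slc30a1 through metal response elements. The core of that element was searched as TGCACNC or TGCGCNC on both strands. Each line gives the 250 bases before the start site in RefSeq, build GRCm38.p6, in the direction of the gene, with the core matches in capitals.
Mt2, chr8:94172368-94172617, plus strand: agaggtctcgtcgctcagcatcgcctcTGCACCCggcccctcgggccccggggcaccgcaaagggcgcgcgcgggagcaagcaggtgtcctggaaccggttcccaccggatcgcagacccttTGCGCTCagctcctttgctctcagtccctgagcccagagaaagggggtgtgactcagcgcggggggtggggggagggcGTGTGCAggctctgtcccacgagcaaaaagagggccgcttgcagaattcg
Mt1, chr8:94178839-94179088, plus strand: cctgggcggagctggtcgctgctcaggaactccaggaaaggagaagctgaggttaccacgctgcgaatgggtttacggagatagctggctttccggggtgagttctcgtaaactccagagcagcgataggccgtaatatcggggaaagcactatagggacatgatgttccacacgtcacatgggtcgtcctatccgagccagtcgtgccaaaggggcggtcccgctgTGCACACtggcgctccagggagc
Slc30a1, chr1:191906531-191906780, plus strand: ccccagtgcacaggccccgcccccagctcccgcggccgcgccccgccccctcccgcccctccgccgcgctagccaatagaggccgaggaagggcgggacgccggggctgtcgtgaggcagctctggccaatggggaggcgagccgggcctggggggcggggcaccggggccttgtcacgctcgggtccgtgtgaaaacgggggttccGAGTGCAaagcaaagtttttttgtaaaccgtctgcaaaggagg
Slc30a4, chr2:122702664-122702913, minus strand: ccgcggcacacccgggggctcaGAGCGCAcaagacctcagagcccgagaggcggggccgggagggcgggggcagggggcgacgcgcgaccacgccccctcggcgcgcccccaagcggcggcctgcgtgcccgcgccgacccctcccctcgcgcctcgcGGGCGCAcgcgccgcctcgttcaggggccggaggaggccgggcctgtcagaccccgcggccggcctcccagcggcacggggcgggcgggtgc
The printed stretch holds 3 core matches for Mt2, 1 for Mt1, 1 for Slc30a1 and 2 for Slc30a4. With the 50 bases after the start included, the counts were 4, 3, 2 and 3. Most of the Mt1 matches thus lay outside its printed stretch, so the printed counts alone do not rank the genes. RefSeq windows of this 300-base length were found for 29 of the 34 genes, as 34 windows. At least 1 core match was in 52.9% of those windows and in 25.7% of all 32851 windows, and at least 3 were in 11.8% and 1.97%. The members with 3 or more were Mt1, Mt2, Slc30a4 and Slc30a10. Those with 2 were Slc30a1, Slc30a2 and Atp7a, and Mtf1 itself had 0. Among these, Mt1, Slc30a10, Slc30a2 and Atp7a did not pass as changed. Of the other genes that passed, Slc31a2 and Slc30a5 had 1 match, Slc39a2 and Slc39a10 had 0, and the windows of Slc39a8 had 0 and 1. No window was found for Slc39a14. Whether core matches go with the changes was not tested. An antioxidant response element core, TGACNNNGC on both strands, was in 26.5% of member windows and 12.4% of all windows, with 1 in those of Mt2 and Slc30a1 and 0 in those of Mt1 and Slc30a4. A match is a run of letters and not a measured site, and these windows do not cover elements farther away.

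Mt2 encodes one of the main metallothioneins outside the brain. Its signal was 11.45, 11.50 and 11.46 on the pristine arrays and 10.75, 10.77 and 10.52 on the modified arrays. All 3 modified arrays lay below all 3 pristine arrays. The change was -0.79 ± 0.10 (SE; limma adjusted p = 0.00205). Mt2 passed in each of the fits without 1 array, at an adjusted p of at most 0.0122, but not under spike scaling (-0.54, with an adjusted p of 0.0664, the highest of its alternatives).

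Mt1, its neighbour on the chromosome with no protein-coding gene between, encodes the other main form. The Mt1 signal was 11.40, 11.43 and 11.46 on pristine and 11.25, 11.32 and 11.22 on modified PEEK. These groups did not overlap either, yet the change of -0.17 did not pass (limma adjusted p = 0.311), with a 95% interval from -0.37 to 0.032. An intensity trend in the variance model brought its adjusted p to 0.00396, and scaling to the spikes turned the change to 0.0780 (adjusted p = 0.746). Over its alternatives the limma adjusted p ran between these values, and the change ran from -0.22 to 0.0780. The change of Mt2 minus that of Mt1, a pair picked after its values were seen, was -0.62 (95% interval -0.84 to -0.40). The difference between the genes was lower on all 3 modified arrays than on any pristine array. An exact permutation test gave a two-sided p of 0.1, the smallest possible with 3 arrays against 3. Both signals lie near the top of the scale, where the highest value is 12.4; whether the arrays were near saturation there was not tested. The transcripts are similar, and cross-hybridisation between their probes was not tested.

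Mt3, the metallothionein best known from brain, was near background on both surfaces. Its signal ran from 3.06 to 3.92 on pristine and from 3.13 to 4.23 on modified arrays, and the groups overlapped.

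Mtf1, the zinc-sensing factor that drives Mt1 and Mt2, had signals of 7.45, 7.55 and 7.44 on pristine and 7.03, 7.09 and 6.95 on modified PEEK. Every modified array was lower than every pristine one. The change was -0.46 ± 0.093 (SE; limma adjusted p = 0.0164). It did not pass once any 1 of the pristine arrays, replicates 1, 2 and 3, or replicate 3 of modified PEEK was left out (adjusted p between 0.0564 and 0.0780), nor under spike scaling (-0.21, with an adjusted p of 0.386, the highest of its alternatives).

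**Figure D2:**
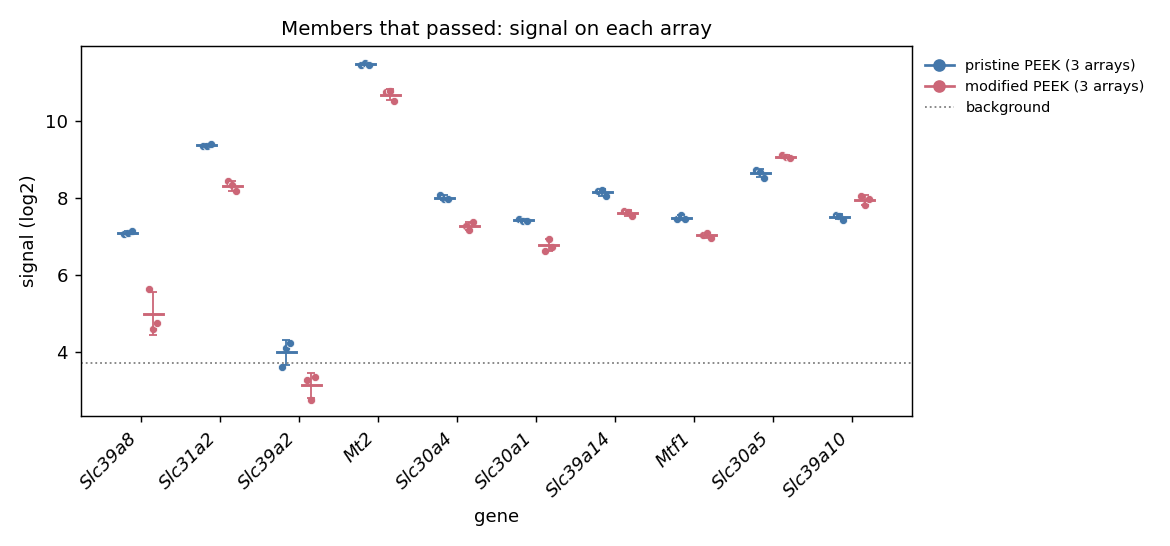
Log2 signal (y axis) of the 10 genes that passed, on each of the 3 pristine and 3 modified PEEK arrays; bars are means, error bars SD, and the dotted line is the background of 3.72. The surfaces are separate for every gene shown, and on modified PEEK Slc39a8 has the widest spread (4.58 to 5.64).

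The Slc39a family supplies zinc to the cytosol, and 3 of its 14 measured genes were lower and 1 higher (28.6%, against 10.4% of all genes). The family's median change was -0.14, against 0.0088 over all genes. Of the 14 changes 11 were below 0, as were 9428 of the 19505 over all genes. Slc39a8 (ZIP8) carries zinc and manganese across the plasma membrane and out of lysosomes, and is known as an importer that immune activation raises. Its signal was 7.05, 7.09 and 7.13 on pristine PEEK and 5.64, 4.58 and 4.76 on modified PEEK. The pristine arrays agreed closely while the modified ones spread, with replicate 1 the highest, but all 3 were below every pristine array. The change was -2.09 ± 0.25 (SE; limma adjusted p = 0.00135), which ranked 24 among all falls of the 19505 genes. It passed under each alternative run, with changes from -2.42 to -1.85 and adjusted p of at most 0.0119.

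Slc39a14 (ZIP14), the closest relative of Slc39a8, carries zinc, manganese and iron. The array values were 8.17, 8.21 and 8.05 on pristine and 7.66, 7.62 and 7.51 on modified PEEK, again without overlap. It fell by 0.54 on the log2 scale, ± 0.095 (SE; limma adjusted p = 0.00910). No fit without 1 array lost this call (adjusted p up to 0.0464), but scaling to the spikes did (-0.30, adjusted p = 0.258, the highest of its alternatives). The change of Slc39a8 minus that of Slc39a14 was -1.55 (95% interval -2.09 to -1.01; exact permutation test, two-sided p = 0.1, the smallest possible). This pair too was picked after its values were seen.

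Slc39a10 (ZIP10), a plasma membrane zinc importer, went the other way. Signals of 7.55, 7.54 and 7.43 on pristine PEEK stood against 8.05, 7.81 and 7.97 on modified PEEK, with no overlap. The rise was 0.44 ± 0.10 (SE; limma adjusted p = 0.0294). Of the fits without 1 array, the call held only in the fit without modified PEEK replicate 2. Without modified PEEK replicate 1, its replicate 3 or any of the pristine arrays (replicates 1, 2 and 3) the adjusted p was up to 0.125, the highest of its alternatives. It also missed the threshold with arrays centred on their medians (0.0582). Slc39a6 (ZIP6), its close relative, had 9.27, 9.34 and 9.32 on pristine and 9.03, 8.93 and 8.98 on modified PEEK. Its change of -0.33 just missed the threshold (limma adjusted p = 0.0530) although the groups were separate. It passed under other variance models and filters, at adjusted p down to 0.000474, and reached 0.729 when scaled to the spikes, the highest of its alternatives.

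Slc39a2, a zinc importer of skin and some immune cells, was dim: 3.62, 4.11 and 4.24 on pristine PEEK and 3.28, 2.76 and 3.35 on modified PEEK. It passed as lower (limma adjusted p = 0.0344), with its modified mean below background. The difference of the means is therefore given as at least 1.20-fold, the pristine mean over the background. Pristine replicate 1 (3.62) was itself below the background of 3.72, so this bound is for the means and not for each array. Of the fits without 1 array, the call held only in the fit without pristine PEEK replicate 1. It was lost on leaving out replicate 2 or 3 of pristine PEEK or any of the modified arrays, replicates 1, 2 and 3, where the adjusted p reached 0.119, the highest of its alternatives. Quantile normalization of the arrays once more also ended it (0.0534).

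The other 9 zinc importers did not pass. Slc39a7 (ZIP7), which releases zinc from the endoplasmic reticulum, changed by -0.25 (95% interval -0.47 to -0.020; limma adjusted p = 0.181) with separate groups. Slc39a9, of the Golgi, also had separate groups but a change of only -0.0868, from 8.26 ± 0.025 to 8.17 ± 0.033 (SD, n = 3). The plasma membrane importer Slc39a1 was at 8.54 ± 0.036 and 8.41 ± 0.14 (SD, n = 3), and its groups overlapped. Slc39a11 (-0.12), Slc39a3 (-0.15) and Slc39a13 (0.0980), the last a carrier of early secretory vesicles, also overlapped. Slc39a4, the intestinal zinc importer, Slc39a5 and Slc39a12 had group means between 4.01 and 4.69, not far above background, and none passed.

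Among the 10 measured genes of the Slc30a family, most of which lower cytosolic zinc, 2 were lower and 1 higher (30%, against 10.4% of all genes). The family's median change was -0.12, against 0.0088 over all genes. Slc30a4 (ZnT4) loads zinc into endosomal and lysosomal vesicles. It gave 8.07, 7.96 and 7.98 on pristine PEEK and 7.27, 7.16 and 7.36 on modified PEEK, so that the groups were far apart for their spread. The change was -0.74 ± 0.097 (SE; limma adjusted p = 0.00229). Slc30a1 (ZnT1) is the zinc exporter of the plasma membrane and, like Mt1 and Mt2, a known Mtf1 target. Its signals were 7.45, 7.41 and 7.40 against 6.63, 6.94 and 6.73, also without overlap. It changed by -0.65 ± 0.11 (SE; limma adjusted p = 0.00625). Neither call was lost without any 1 array (adjusted p up to 0.0137 for Slc30a4 and 0.0328 for Slc30a1). With spike scaling the changes were -0.49 and -0.41, and neither passed: their adjusted p of 0.0821 and 0.172 were the highest of their alternatives.

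Slc30a5 (ZnT5) works with Slc30a6 (ZnT6) in the early secretory pathway, where they hand zinc to enzymes such as alkaline phosphatase. Slc30a5 had 8.71, 8.68 and 8.51 on pristine and 9.12, 9.05 and 9.04 on modified PEEK. All 3 modified arrays were higher, and the rise was 0.44 ± 0.096 (SE; limma adjusted p = 0.0238). Leaving out any 1 of the 6 arrays, replicates 1, 2 and 3 of each surface, ended the call, with adjusted p from 0.0516 to 0.111, the highest of its alternatives. Slc30a6 did not pass and lay on the other side of 0, at 8.04 ± 0.050 and 7.88 ± 0.11 (SD, n = 3), with overlapping groups. Slc30a7 (ZnT7), which serves the same compartment, had separate groups, 9.35 to 9.42 against 9.15 to 9.29, but its change of -0.16 did not pass (limma adjusted p = 0.353).

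The other 5 genes of the Slc30a family did not pass. Slc30a9, the mitochondrial zinc carrier, was at 6.49 ± 0.12 and 6.38 ± 0.14 (SD, n = 3). Slc30a2 and Slc30a3, best known from mammary gland and synaptic vesicles, were uneven between arrays. Slc30a2 ran from 4.38 to 4.48 on pristine and from 3.88 to 5.06 on modified PEEK. Slc30a3 ran from 4.65 to 5.62 on pristine and from 5.24 to 5.96 on modified PEEK. Slc30a8, of insulin granules, and Slc30a10, a manganese exporter, were below background on both surfaces, with signals of 2.55 to 3.05 and 2.27 to 2.76 over the 6 arrays.

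Of the copper carriers, Slc31a2 (CTR2) fell and Slc31a1 (CTR1), the main route of copper into the cell, did not pass. Slc31a2 sits largely in endosomes and lysosomes and is known to modify copper uptake by Slc31a1. Its signal was 9.33, 9.36 and 9.39 on pristine and 8.43, 8.34 and 8.18 on modified PEEK. The change was -1.04 ± 0.10 (SE; limma adjusted p = 0.000549, the smallest of the 34 genes), with no overlap. It passed under each alternative run, with changes from -1.10 to -0.79 and adjusted p of at most 0.00840. Slc31a1 had 8.46, 8.47 and 8.56 against 8.32, 8.21 and 8.49, and its groups overlapped. Its change was -0.16, with a 95% interval from -0.40 to 0.0826 (limma adjusted p = 0.447).

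The genes lie near each other, with only Fkbp15 as a protein-coding gene between them in RefSeq. The change of Slc31a2 minus that of Slc31a1 was -0.88 (95% interval -1.19 to -0.58; exact permutation test, two-sided p = 0.1, the smallest possible). The 3 differences between related genes (Mt2 and Mt1, Slc39a8 and Slc39a14, Slc31a2 and Slc31a1) were picked after their values were seen, and their Benjamini-Hochberg adjusted p over the 3 was 0.1 each.

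**Figure D3:**
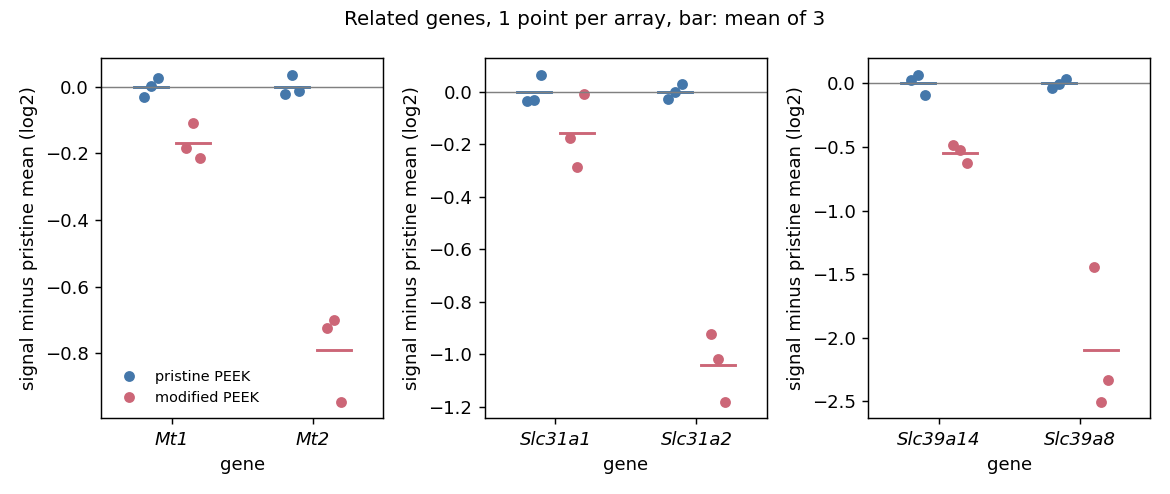
Log2 signal on each array minus the gene's mean on pristine PEEK (y axis; scales differ between panels) for Mt1 and Mt2, Slc31a1 and Slc31a2, and Slc39a14 and Slc39a8; bars are means of 3 arrays. In each panel the gene on the right has the larger fall, and the differences of change are -0.62, -0.88 and -1.55.

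None of the 4 copper chaperone and pump genes passed by limma, against 10.4% of all genes. Of the 4, Atp7a and Atox1 had an unadjusted limma p under 0.05, as did 4424 of all 19505 genes. Atp7a, the pump that moves copper into the Golgi and into phagosomes of macrophages, had signals of 7.58, 7.49 and 7.53 on pristine and 7.05, 7.12 and 7.34 on modified PEEK. The groups were separate, and the change was -0.37 ± 0.11 (SE; limma adjusted p = 0.0682). It passed without modified PEEK replicate 3 (adjusted p = 0.0478) and with dim genes left out or an intensity trend (down to 0.0105), and reached 0.626 when scaled to the spikes, the highest of its alternatives. Atox1, the chaperone that feeds the pumps, was at 7.86, 7.96 and 7.91 against 8.26, 8.25 and 7.98. All its modified arrays were higher, but the change of 0.25 did not pass (limma adjusted p = 0.211; 95% interval 0.0051 to 0.50). Ccs, which delivers copper to superoxide dismutase 1, was at 6.39 ± 0.25 and 6.39 ± 0.10 (SD, n = 3; 95% interval of the change -0.31 to 0.32). Atp7b, the pump best known from liver, was just above background at 3.99 ± 0.12 and 3.91 ± 0.18 (SD, n = 3).

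Genes that share the metals with these 34 were taken from 5 lists, whose changes are given on the deposited scale only. In the list of mitochondrial copper and cytochrome c oxidase assembly, 1 of 9 genes was lower and 0 higher, which is 11.1% against 10.4% of all genes, with a median change of 0.0962. The lower one was Cox17, the copper chaperone for cytochrome c oxidase (9.07 ± 0.13 to 8.37 ± 0.075; SD, n = 3; limma adjusted p = 0.00407), while Slc25a3, the mitochondrial phosphate and copper carrier, was at 10.68 ± 0.023 and 10.70 ± 0.018. Of 26 genes for copper enzymes and copper trafficking, 3 were lower and 0 higher (11.5%), again near the share of all genes, with a median of -0.0055. Slc46a3, a lysosomal membrane carrier, fell by 0.86 on the log2 scale and the amine oxidase gene Aoc1 by 0.48. The third was Cdkn1a, a cell cycle inhibitor gene that is not a copper enzyme (-0.67). Sod1, the copper and zinc superoxide dismutase, did not pass (9.65 ± 0.12 and 9.74 ± 0.089; SD, n = 3). None of 9 metalloreductase genes passed by limma, against 10.4% of all genes. An unadjusted limma p under 0.05 was found for 1 of the 9, and for 4424 of all 19505 genes. The groups were separate for 11.1% of the 9 against 28.8% of all genes, and the median change of the 9 was -0.0045.

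Of 18 other metal carriers and zinc binders 3 were lower and 0 higher (16.7%, against 10.4% of all genes changed either way), with a median of -0.0387. They were Slc40a1, the iron exporter ferroportin (-2.85), and Slc11a1 (-0.86) and Slc11a2 (-0.51), which move manganese and iron out of phagosomes and endosomes. The zinc-binding S100a8 and S100a9 genes were below background on both surfaces. In the list of zinc-requiring macrophage genes 4 of 16 were lower and 0 higher (25%), with a median of -0.0726. These 4 encode zinc enzymes: the metalloproteinases Mmp12 (-5.50) and Mmp9 (-0.99), the latter below background on modified PEEK, and the carbonic anhydrases Car6 (-4.41) and Car13 (-0.80). The sheddase gene Adam17 (-0.0718) and the carbonic anhydrase gene Car2 (0.42, limma adjusted p = 0.114) did not pass.

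**Figure D4:**
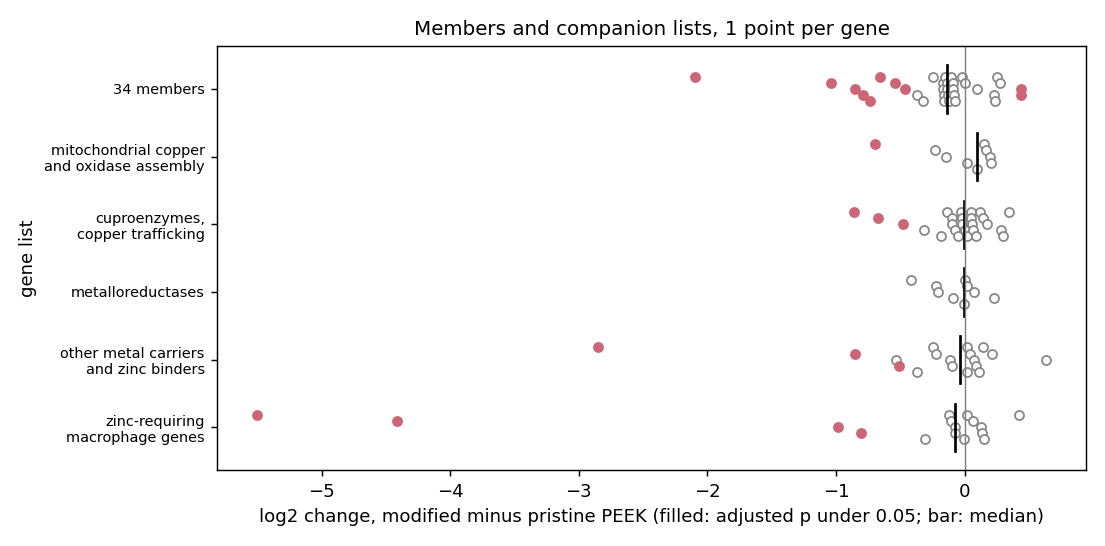
Log2 change (modified minus pristine PEEK, x axis) of the 34 genes and of the genes of 5 related lists, 1 point per gene; filled points have an adjusted p under 0.05 and the vertical bar is the list's median. All filled points of the 5 lists lie left of 0, with list medians between -0.0726 and 0.0962.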

How the data were processed

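Total RNA from 6 RAW264.7 samples was measured on Affymetrix arrays. The authors deposited log2 signals per probe set; RMA is named in the submitters' processing notes, and its role, version and the genome build are not given in the sources used here. That they are log2 was read from their range, 0.941 to 12.4. Quantile normalization, a usual step of RMA, would hide a change in total RNA per cell. Genes were named through the platform annotation, and for a gene with several probe sets the one with the highest mean was kept.

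All 6 arrays entered a limma 3.58.1 fit (R 4.3.3; no trend, no covariate, two-sided), with 4 residual and 4.09 prior degrees of freedom. The alternatives were other scalings (median, quantile, spikes), filters on dim genes, probe set choices, variance models, array weights, a stricter threshold, the replicate number as a block, and each array left out in turn. Each of the 34 genes has 1 probe set, so the probe set choices could not alter its signal or its change. The precision is limited by the 3 arrays per surface. Members, lists and alternatives were chosen with earlier results of these data known. Every member is named. Those that passed have all array values, and those below background on both surfaces have a range and no fold. From the lists, up to 4 passing genes with the largest change and up to 2 bright ones that did not pass were eligible; S100a8, S100a9 and single markers were chosen after their values were seen. Protein sequences were not used here.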

Additional observations from a re-analysis of the deposited data

How the results depend on the processing

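Alternatives were run for the counts and for each of the 34 genes; the cause of each difference below was not tested. The count of higher genes (2) was 1 with arrays centred on their medians, 0 with the replicate block, 0 at an adjusted p under 0.01 and 0 to 1 without 1 array. The count of lower genes (8) was 3 scaled to the poly-A spikes (Slc39a8, Slc31a2 and Slc39a2) and 6 with the replicate block. It was 6 at an adjusted p under 0.01, 6 to 7 without 1 array, and 9 to 11 with dim genes left out, array weights or an intensity trend. The block ended the calls of Mtf1 (adjusted p = 0.0570), Slc39a2 (0.0605), Slc30a5 (0.0733) and Slc39a10 (0.0869) and of no other of the 34. Same-numbered arrays did not deviate together (correlations -0.171, -0.161 and 0.0685), so the numbers were not taken as pairs. Over all genes, 1023 were higher (514 to 1586 over the alternatives) and 1004 lower (290 to 1719). Scaled to the spikes, which moved the median of all genes to 0.26, these changes turned positive and did not pass: Mt1 0.0780, Atp7b 0.17, Slc30a10 0.16, Slc30a2 0.16, Slc30a6 0.0796, Slc30a7 0.0860, Slc30a8 0.11, Slc30a9 0.14, Slc31a1 0.0907, Slc39a1 0.11, Slc39a11 0.12, Slc39a12 0.23, Slc39a3 0.0932, Slc39a4 0.11, Slc39a7 0.0017 and Slc39a9 0.16. With array weights Slc30a10 was at 0.0087. Without 1 array the change crossed 0, without passing, for Atp7b (-0.16 to 0.0198), Ccs (-0.11 to 0.14), Mt3 (-0.0108 to 0.54), Slc30a10 (-0.19 to 0.0572), Slc30a2 (-0.44 to 0.15), Slc30a3 (-0.0299 to 0.46), Slc30a8 (-0.22 to 0.0302) and Slc39a12 (-0.20 to 0.11). No gene that passed changed direction under any alternative run. Low signal limits Slc39a2, Mt3, Atp7b, Slc30a8 and Slc30a10.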
